A study of Mus musculus with 24 samples.

Results

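The costimulatory receptors described here are 10 genes, chosen by name in the gene count table: Tnfrsf4, Tnfrsf8, Tnfrsf9, Tnfrsf14, Tnfrsf18, Tnfrsf1b, Tnfrsf25, Cd27, Cd28 and Icos. They are 10 of 56748 genes in the table, and all 10 are among the 15885 genes with enough reads to be tested. The study measured messenger RNA by bulk RNA sequencing in mouse T cells grown in vitro, and asked what agonists of the kappa opioid receptor (KOR) do to them. It has 24 libraries, 1 for each pairing of 4 cell types (activated CD8 T cells, and cells polarised to Th1, Th17 or Treg) with 6 treatments. The treatments are the vehicle DMSO and 5 KOR agonists of a perhydroquinoxaline series, each at 0.1 µM for up to 5 days, known by code: WMS-83-02 (WMS-83 here), WMS-76-04A (WMS-76), WMS-75-13 (WMS-75), WMS-64-07 (WMS-64) and WMS-200-01 (WMS-200). Those are the codes of the treatment protocol. In the sample titles the last number differs between cell types for each compound but WMS-76 (WMS-200-02 in Th17, WMS-200-03 in Treg), and for 3 CD8 libraries the title and the treatment label differ in it; libraries were grouped by the first number, which the column names carry.

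Every library carries the genotype label WT, with no other allele or agent named. The cells were polarised in culture with a reagent supplier's published recipes, so each cell type differs from the others in its culture conditions as well as its lineage, and the labels do not say how many animals were used. There is 1 library for each cell type and treatment, so the 6 libraries of a cell type differ in treatment, and the p-values below measure only the spread between libraries, which may share an animal. The table's column names also carry a WT number. All Th1 columns are numbered 4 and all CD8 columns 2, so for those cell types the number cannot be told apart from the cell type. In Th17 the DMSO library is numbered 2, WMS-83 is 3 and the other 4 are 1, and in Treg the DMSO and WMS-200 libraries are numbered 3 and the other 4 are 2. One library whose title reads Th17 is given as Th1 by its source, its cell type label and its column, and was taken as Th1.

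Costimulatory receptors give a T cell the second signal that, together with the antigen receptor, sets whether it divides, survives and makes cytokine. Cd28 and Icos belong to the immunoglobulin superfamily, bind B7 family ligands and signal mainly through phosphoinositide 3-kinase. The other members belong to the TNF receptor superfamily, bind trimeric TNF family ligands, and recruit TRAF adaptors that switch on NF-kappaB; regulatory T cells are known for high surface levels of several of them, and some appear only after activation.

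Libraries held 16842562 to 20937496 counted reads in CD8, 15188284 to 18500457 in Treg, 16933512 to 21946887 in Th1 and 16271300 to 21608525 in Th17. Foxp3 averaged 282 CPM (read counts scaled to the size of each library) in Treg against at most 34.0 elsewhere, Il17a 144 in Th17 against at most 16.1, Ifng 592 in Th1 and 1369 in CD8 against at most 5.00, and Cd8a 389 in CD8 against at most 84.1, the latter in Th17. Of the other Treg markers, Ikzf2 (752.5 CPM in Treg against at most 14.4) and Lrrc32 (48.2 against at most 12.2) were also highest in Treg, while Il2ra was lowest there, at 1069.9 CPM against 1269 to 1894 elsewhere. B-cell markers summed to at most 9.19 CPM on average in any cell type, and 5 stromal markers to 52.2 CPM in Treg against 12.9 to 20.4 elsewhere, with 1 of the 5 at 0 in every Th17 library. In bulk RNA, fewer cells of a type and less RNA per cell cannot be told apart.

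Promoter sequence is shown first for the receptors the results turn on most: Tnfrsf8 and Tnfrsf9, which had the widest ranges between cell types, and Tnfrsf4 and Tnfrsf18, neighbours with like profiles. Each line gives the 250 bases before a transcription start, 5′ to 3′ on the gene's strand, from RefSeq annotation of GRCm38.p6. Capitals mark matches to the kappaB consensus (the DNA element bound by NF-kappaB) or to the AP-1 element TGANTCA, searched on both strands.
Tnfrsf8, chr4:145315165-145315414, minus strand: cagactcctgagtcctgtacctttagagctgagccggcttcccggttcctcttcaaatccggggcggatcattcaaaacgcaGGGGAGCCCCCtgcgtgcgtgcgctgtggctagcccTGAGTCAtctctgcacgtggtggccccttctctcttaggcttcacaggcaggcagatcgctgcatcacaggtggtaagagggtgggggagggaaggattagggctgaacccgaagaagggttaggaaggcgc
Tnfrsf9, its second start site, chr4:150927749-150927998, plus strand: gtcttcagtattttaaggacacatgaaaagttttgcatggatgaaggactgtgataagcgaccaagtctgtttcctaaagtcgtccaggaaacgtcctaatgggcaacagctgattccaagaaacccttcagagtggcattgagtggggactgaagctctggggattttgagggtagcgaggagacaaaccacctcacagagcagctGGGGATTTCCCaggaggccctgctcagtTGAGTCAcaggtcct
Tnfrsf4, chr4:156013445-156013694, plus strand: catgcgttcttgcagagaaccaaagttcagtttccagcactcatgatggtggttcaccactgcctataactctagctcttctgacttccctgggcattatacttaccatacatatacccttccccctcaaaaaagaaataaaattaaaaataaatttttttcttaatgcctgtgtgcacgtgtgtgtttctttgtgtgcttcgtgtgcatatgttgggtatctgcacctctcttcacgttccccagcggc
Tnfrsf18, chr4:156026072-156026321, plus strand: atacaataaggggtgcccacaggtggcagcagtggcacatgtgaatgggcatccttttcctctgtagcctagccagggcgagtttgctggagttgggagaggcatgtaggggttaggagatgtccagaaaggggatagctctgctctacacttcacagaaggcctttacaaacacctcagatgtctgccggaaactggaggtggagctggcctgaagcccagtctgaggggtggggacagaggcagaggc
The Tnfrsf8 window holds a kappaB match 168 to 158 bases before the start and an AP-1 match 132 to 126 bases before it. In the second Tnfrsf9 start site the kappaB match lies 43 to 33 and the AP-1 match 15 to 9 bases before the start. In both windows the kappaB stretch is a pair of overlapping matches, and no match of one motif overlaps a match of the other. The Tnfrsf4 and Tnfrsf18 windows hold neither, nor does the window of the first Tnfrsf9 start site, which is not printed.

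RefSeq windows were matched by symbol for 8 of the 10 genes, with 10 start sites in all. The kappaB consensus was in 3 of these 10 windows (Tnfrsf8, Tnfrsf9 and a second start site of Tnfrsf25) and in 7.25% of 32851 windows of the same length. AP-1 was in 2 of 10 and in 6.75% of all windows, the GC box GGGCGG in 3 of 10 (Tnfrsf1b, Tnfrsf8 and Tnfrsf9) and in 32.7%, and the cyclic AMP element TGACGTCA in 0 of 10 and in 1.55%. The GC box of Tnfrsf9 is in the window of its first start site, not in the one printed. A match describes the letters in these windows only.

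The 10 receptors did not share a pattern across the cell types. A gene was called where its adjusted p in edgeR's quasi-likelihood test was under 0.05, and all 10 receptors were called among the 4 cell types, a test that also called 87.4% of all genes tested. By mean CPM, 3 receptors were highest in Th1 (Tnfrsf4, Tnfrsf18 and Icos), 3 in CD8 (Tnfrsf8, Tnfrsf9 and Cd28), 3 in Treg (Tnfrsf1b, Tnfrsf14 and Cd27) and 1 in Th17 (Tnfrsf25). Th17 had the lowest mean for 4 of them, Treg for 3, CD8 for 2 and Th1 for 1. These places hold for library-size scaling; with the length-dependent offsets described further on, Treg rather than Th1 was highest for Tnfrsf4 and Tnfrsf18, and Treg rather than Th17 for Tnfrsf25. The ratio of the highest to the lowest cell-type mean CPM was 28.3 for Tnfrsf8, 6.95 for Tnfrsf9, 4.499 for Cd27 and 4.14 for Cd28. It lay between 2.97 and 3.47 for the other 6. Over all genes tested the median ratio was 2.17. That median was taken from cell-type means of log2 CPM with a prior count of 2, not from mean CPM.

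**Figure D1:**
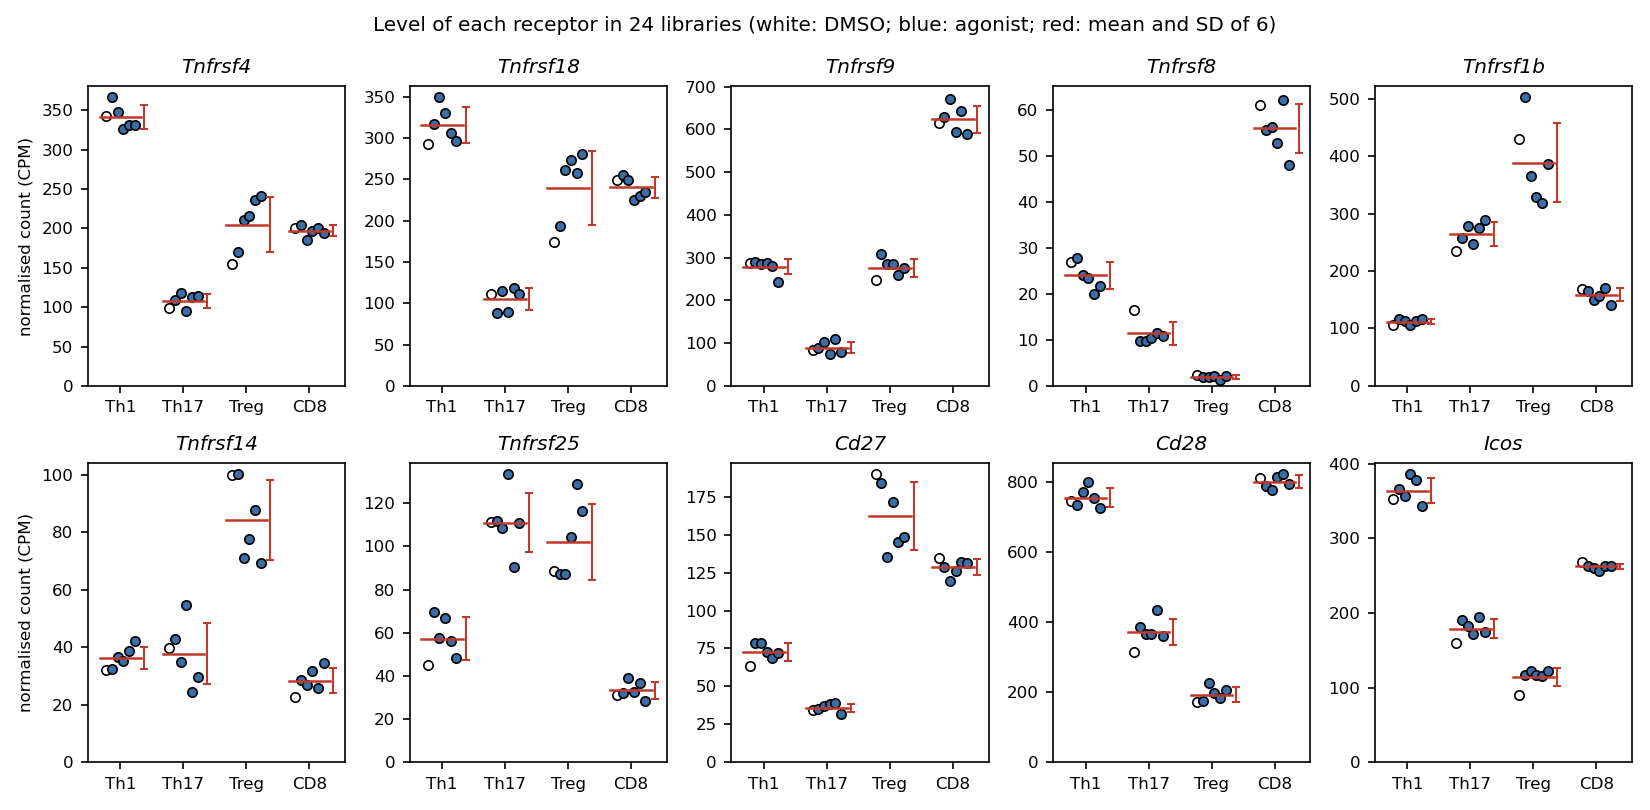
Level of each receptor in CPM (1 panel a receptor, linear axis from 0) in the 6 libraries of each cell type, with DMSO in white, agonists in blue, and the mean and SD of the 6 in red. Tnfrsf8 runs from 1.28 CPM in a Treg library to 62.2 CPM in a CD8 library, while the Tnfrsf14 libraries of Th1, Th17 and CD8 overlap.

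Between pairs of cell types, the number of receptors called was read against the share of all genes called in the same test. Th1 against Th17 called 9 of 10 (7 higher in Th1, 2 lower), beside 48.7% of all genes (24.9% higher, 23.9% lower), and the median log2 fold change was 1.02 for the receptors against 0.02 for all genes. Th17 against CD8 called 10 of 10 (3 higher in Th17, 7 lower) beside 48.5% (23.4% higher, 25% lower), with medians of -0.99 and -0.00. In both comparisons, which share the Th17 libraries, most of these receptors were lower in Th17.

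Th1 against CD8 called 9 of 10 (5 higher in Th1, 4 lower) beside 22.6% of all genes (10.9% higher, 11.8% lower). The Treg contrasts called a large share of all genes, so the receptor counts stand close to it: 9 of 10 against Th1 (5 higher in Th1, 4 lower) beside 76.2% (36.9% higher, 39.3% lower), 9 of 10 against Th17 (3 higher in Th17, 6 lower) beside 73.4% (36% higher, 37.4% lower), and 8 of 10 against CD8 (4 higher in Treg, 4 lower) beside 76.5% (39.3% higher, 37.2% lower). With the length-dependent offsets described further on, all 10 were called in each Treg contrast. Of these, 3 were higher in Th1 than in Treg and 7 lower, and 3 higher in Th17 than in Treg and 7 lower. Against CD8, 6 were higher in Treg and 4 lower. The share of all genes called with the offsets is not given here, so these counts have no background beside them. The median of all genes also moved toward Treg. It went from -0.09 to -0.25 against Th1 (Th1 minus Treg) and from -0.09 to -0.24 against Th17 (Th17 minus Treg). Against CD8 (Treg minus CD8) it went from 0.08 to 0.23.

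Tnfrsf4 encodes OX40, a receptor of activated T cells that binds OX40 ligand and sustains survival and memory (ENSMUSG00000029075, chromosome 4, 156098300 to 156101069, plus strand). Coordinates here and below are those in the deposited table, whose genome build is not given in the sources used here and which do not match the GRCm38.p6 positions of the promoters. Tnfrsf4 ranged from 326 to 367 CPM with a median of 337 in Th1, and from 154 to 241 CPM with a median of 213 in Treg. It ranged from 185 to 205 CPM with a median of 198 in CD8, and from 94.7 to 118 CPM with a median of 110.5 in Th17. All 6 Th1 libraries were above every other library and all 6 Th17 libraries below every other, while Treg and CD8 overlapped. The log2 fold change of Th1 over Th17 was 1.66 ± 0.08, adjusted p = 1.12e-15 (edgeR), and that of Th1 over Treg was 0.75 ± 0.08, adjusted p = 5.9e-09. Treg and CD8 could not be told apart at this spread (0.05 ± 0.08, adjusted p = 0.653; 95% interval -0.12 to 0.21).

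Tnfrsf18 encodes GITR, known for its constitutive display on regulatory T cells and its rise on activation of other T cells (ENSMUSG00000041954, chromosome 4, 156110621 to 156113352, plus strand). It starts 9.55 kb beyond the end of Tnfrsf4 on the same strand, with 0 protein-coding genes between them. Tnfrsf18 ranged from 294 to 350.1 CPM with a median of 312 in Th1, and from 225 to 255 CPM with a median of 242 in CD8. It ranged from 174 to 281 CPM with a median of 259 in Treg, and from 88.7 to 118 CPM with a median of 111 in Th17. As with Tnfrsf4, the Th1 libraries were above and the Th17 libraries below all others, and Treg and CD8 overlapped. Th1 exceeded Th17 by 1.58 ± 0.09, adjusted p = 1.38e-13, and CD8 by 0.39 ± 0.09, adjusted p = 0.000722 (log2, edgeR). The difference of Treg from CD8 was -0.02 ± 0.09, adjusted p = 0.902 (95% interval -0.21 to 0.17). Its span overlaps the antisense gene Gm16008, which averaged 3.86 CPM; the strand setting of the counting is not given in the sources used here. Reads in such overlaps therefore cannot be told apart.

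The profiles of Tnfrsf4 and Tnfrsf18 were the closest pair among the 10 receptors. Their centred log2 CPM over the 24 libraries differed by a root mean square of 0.198, ahead of Cd28 and Icos at 0.316 and the next pair at 0.532. Per kilobase of transcript, Tnfrsf4 stood at 1.21 times Tnfrsf18 in Th1 and 1.15 times in Th17, and at 0.956 in Treg and 0.916 in CD8.

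Tnfrsf9 encodes CD137, an inducible receptor known for driving expansion and survival of cytotoxic T cells (ENSMUSG00000028965, chromosome 4, 150999019 to 151030559, plus strand). Tnfrsf9 ranged from 588 to 672 CPM with a median of 622 in CD8, and from 244 to 291 CPM with a median of 286 in Th1. It ranged from 247 to 308 CPM with a median of 279.8 in Treg, and from 74.7 to 111 CPM with a median of 85.8 in Th17. Every CD8 library exceeded every library of the other types, every Th17 library was below them, and Th1 and Treg overlapped. The log2 fold change of Th17 against CD8 was -2.80 ± 0.08, adjusted p = 9.8e-21 (edgeR), a 6.97-fold difference. CD8 was 2.23-fold above Th1 (Th1 minus CD8 -1.16 ± 0.07, adjusted p = 1.03e-13). Th1 against Treg was 0.01 ± 0.07, adjusted p = 0.898 (95% interval -0.13 to 0.16). The gene overlaps Camta1 on the other strand, which averaged 9.30 CPM.

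Tnfrsf8 encodes CD30, a receptor of activated lymphocytes best known as a marker of Hodgkin and anaplastic lymphoma (ENSMUSG00000028602, chromosome 4, 144993707 to 145041734, minus strand). It had the widest range of the 10. Tnfrsf8 ranged from 48.0 to 62.2 CPM with a median of 56.0 in CD8, and from 19.99 to 27.8 CPM with a median of 23.8 in Th1. It ranged from 9.74 to 16.5 CPM with a median of 10.7 in Th17, and from 1.28 to 2.43 CPM with a median of 2.05 in Treg, where the 6 libraries held 28 to 46 reads each. No library of one cell type overlapped another, so the order CD8, Th1, Th17, Treg held library by library. Treg was 28.4-fold below CD8 (-4.83 ± 0.12, adjusted p = 4.21e-21, log2, edgeR). The steps between neighbours were 1.23 ± 0.10 from Th1 to CD8, 1.08 ± 0.10 from Th17 to Th1 and 2.53 ± 0.13 from Treg to Th17, all called.

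Tnfrsf1b encodes TNFR2, the TNF receptor without a death domain, known for supporting regulatory T cell expansion (ENSMUSG00000028599, chromosome 4, 144940033 to 144973440, minus strand). It is the nearest neighbour of Tnfrsf8, 20.3 kb away on the same strand with 0 genes between them, and its order across cell types was different. Tnfrsf1b ranged from 319 to 502 CPM with a median of 376 in Treg, and from 235 to 289.8 CPM with a median of 267 in Th17. It ranged from 142 to 171 CPM with a median of 161 in CD8, and from 106 to 116 CPM with a median of 114 in Th1. No pair of cell types overlapped. Treg exceeded Th1 by 3.46-fold (Th1 minus Treg -1.79 ± 0.08, adjusted p = 3.6e-16, edgeR) and Th17 by 1.46-fold (Th17 minus Treg -0.55 ± 0.08, adjusted p = 1.34e-06). Per kilobase, Tnfrsf1b stood 2.57 ± 0.123 (SD, n = 6) times above Tnfrsf8 in CD8, 4.28 ± 0.617 in Th1, 21.6 ± 4.57 in Th17 and 182 ± 35.9 in Treg.

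Tnfrsf14 encodes HVEM, which binds LIGHT and, as a ligand itself, the inhibitory receptors BTLA and CD160 (ENSMUSG00000042333, chromosome 4, 155006390 to 155013020, minus strand). Tnfrsf14 ranged from 69.3 to 100.4 CPM with a median of 82.8 in Treg, and from 24.5 to 54.7 CPM with a median of 37.4 in Th17. It ranged from 32.2 to 42.4 CPM with a median of 36.0 in Th1, and from 22.7 to 34.7 CPM with a median of 27.7 in CD8. The Treg libraries were above all others, while the libraries of the other types overlapped in each pair. Treg exceeded CD8 by 1.57 ± 0.15, adjusted p = 5.67e-09 (log2, edgeR). Th1 did not differ from Th17 beyond the spread (-0.04 ± 0.15, adjusted p = 0.856; 95% interval -0.35 to 0.27). Th1 over CD8 (0.36 ± 0.15, adjusted p = 0.0442) and Th17 over CD8 (0.40 ± 0.15, adjusted p = 0.0277) passed narrowly. Leaving out 1 library ended the first of these calls for 10 of 24 libraries, with adjusted p from 0.0161 to 0.124 (Th1 WMS-64, WMS-76 or WMS-83, Th17 WMS-64, Treg WMS-64, or any CD8 library but WMS-83). It ended the second for 5 (Th17 DMSO, WMS-200 or WMS-75, CD8 DMSO or WMS-200), with adjusted p from 0.00412 to 0.110; with the WT number as a block the second was 0.22, adjusted p = 0.491. Upper-quartile scaling and the length offsets also ended both calls, with adjusted p of 0.0558 and 0.156 for the first and 0.0529 and 0.0607 for the second.

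Tnfrsf25 encodes DR3, the death-domain receptor for TL1A, known for costimulating effector and regulatory T cells (ENSMUSG00000024793, chromosome 4, 152200391 to 152204576, plus strand). Tnfrsf25 ranged from 90.4 to 134 CPM with a median of 111 in Th17, and from 87.1 to 129 CPM with a median of 96.6 in Treg. It ranged from 45.1 to 69.8 CPM with a median of 56.9 in Th1, and from 28.6 to 39.0 CPM with a median of 32.2 in CD8. Th17 and Treg overlapped and stood above Th1, which stood above CD8, with no overlap at either step. It was the only receptor of the 10 with its highest mean in Th17. Th17 exceeded CD8 by 1.74 ± 0.11, adjusted p = 2.84e-12 (log2, edgeR), and the difference of Th17 from Treg was 0.12 ± 0.11, adjusted p = 0.359 (95% interval -0.10 to 0.35).

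Cd27 encodes the receptor for CD70, carried by naive and memory T cells and lost on terminal effector cells (ENSMUSG00000030336, chromosome 6, 125209585 to 125213973, minus strand). Cd27 ranged from 135 to 189.6 CPM with a median of 160.0 in Treg, and from 119 to 135 CPM with a median of 130.1 in CD8. It ranged from 63.7 to 78.9 CPM with a median of 72.6 in Th1, and from 32.1 to 38.9 CPM with a median of 36.4 in Th17. The lowest Treg library and the highest CD8 library met at 135 CPM without overlapping, and the other steps were clear. Th17 was 4.48-fold below Treg (-2.16 ± 0.08, adjusted p = 3.37e-18, log2, edgeR), and Treg exceeded CD8 by 0.33 ± 0.07, adjusted p = 0.000394. Cd27 overlaps Vamp1 on the other strand, which averaged 33.04 CPM, so reads in that overlap cannot be told apart.

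Cd28 encodes the receptor for B7-1 and B7-2 that delivers the classical costimulatory signal to naive T cells (ENSMUSG00000026012, chromosome 1, 60755959 to 60812518, plus strand). Cd28 ranged from 776 to 823 CPM with a median of 803 in CD8, and from 725 to 800.4 CPM with a median of 750.3 in Th1. It ranged from 316 to 434 CPM with a median of 367 in Th17, and from 171 to 228 CPM with a median of 190.5 in Treg. CD8 and Th1 overlapped, and every Treg library lay below every Th17 library. Treg was 4.15-fold below CD8 (-2.05 ± 0.07, adjusted p = 1.03e-18, log2, edgeR) and Th17 was above Treg by 0.94 ± 0.07, adjusted p = 3.44e-12. Th1 against CD8 gave -0.09 ± 0.07, adjusted p = 0.289 (95% interval -0.23 to 0.05).

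Icos encodes the inducible costimulator, known for its part in follicular helper and regulatory T cells (ENSMUSG00000026009, chromosome 1, 61017086 to 61039479, plus strand). It lies 205 kb beyond Cd28, with Ctla4 the only protein-coding gene between them. Icos ranged from 343 to 387 CPM with a median of 362 in Th1, and from 256 to 268 CPM with a median of 263 in CD8. It ranged from 159.8 to 194 CPM with a median of 179 in Th17, and from 90.9 to 123 CPM with a median of 117 in Treg. No pair of cell types overlapped. Th1 exceeded Treg by 1.67 ± 0.06, adjusted p = 2.91e-18 and CD8 by 0.47 ± 0.06, adjusted p = 1.08e-07 (log2, edgeR). Cd28 and Icos thus shared the order of Th17 above Treg with both below Th1 and CD8. Ctla4, the inhibitory receptor between them that binds the same ligands as Cd28, averaged 318 CPM in Treg against 78.3 to 107 elsewhere. Icos overlaps the gene Gm37039 on the same strand, which averaged 1.45 CPM.

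Dividing CPM by transcript length puts the receptors on one scale within a cell type. On that scale the 10 receptors summed to 457 ± 17.5 CPM per kilobase in Th17 and 749.5 ± 40.6 in Treg, against 886 ± 17.8 in CD8 and 907 ± 31.5 in Th1 (mean ± SD, n = 6). In Th1, Tnfrsf4 held 27.6% of the sum, Tnfrsf18 22.8% and Cd28 13.6%. In CD8, Tnfrsf9 led with 25.8%, ahead of Tnfrsf18 at 17.8% and Tnfrsf4 at 16.3%. In Treg, Tnfrsf18 held 20.9%, Tnfrsf4 19.9% and Tnfrsf1b 13.7%, while Cd28 held 4.22%, Icos 4.44% and Tnfrsf8 0.0770%. In Th17, Tnfrsf4 held 17.3%, and Tnfrsf18 and Tnfrsf1b 15.1% each. These sums and shares carry no length offsets, which moved the Treg values of Tnfrsf4 and Tnfrsf18 as described below. The Treg sum and shares may therefore depend on the scaling, which was not tested.

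**Figure D2:**
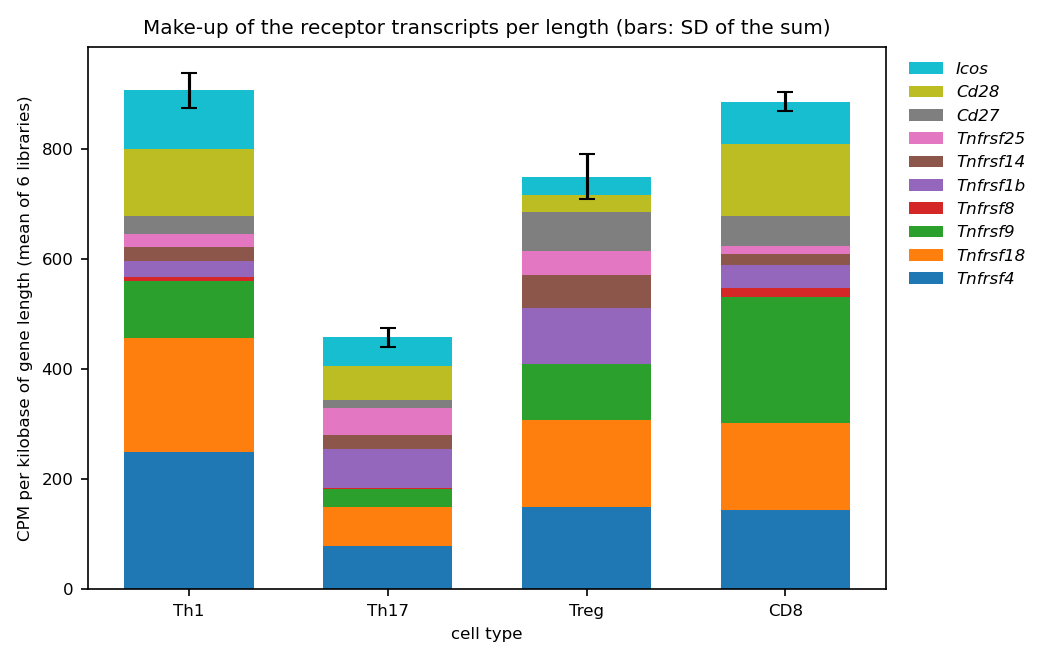
Mean CPM per kilobase of gene length of the 10 receptors, stacked, in each cell type (6 libraries), with the SD of the sum as a bar. The stack is 457 in Th17 against 749.5 to 907 elsewhere. The Tnfrsf9 band is widest in CD8, where it makes up 25.8% of the sum. The length offsets described below were not applied.

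The comparisons with Treg also moved with gene length. Across 11483 genes, the log2 fold change correlated with transcript length at a Spearman rho of -0.325 for Th1 against Treg, -0.289 for Th17 against Treg and 0.317 for Treg against CD8, and at -0.156 to 0.112 for the other pairs. These are correlations across genes, which are not independent replicates, and are given as a description. Ribosomal protein genes held 2.29% of Treg reads against 10.7% to 12.1% in the other types, and mitochondrial genes 1.13% against 0.336% to 0.572%. The part of these differences in the receptor results was not tested apart from the fit that follows.

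With a length-dependent offset for each library, the correlations fell close to 0, the median of all genes moved to between -0.25 and 0.23 in the Treg contrasts, and 5 receptor values turned direction with a call. Tnfrsf4 in Th1 against Treg went from 0.75 to -0.14 (adjusted p = 0.0290, edgeR), Tnfrsf18 from 0.40 to -0.38 (adjusted p = 1.05e-05) and Tnfrsf9 from 0.01 to -0.33 (adjusted p = 5.08e-05). Tnfrsf25 in Th17 against Treg went from 0.12 to -0.30 (adjusted p = 0.0136, edgeR). Tnfrsf18 in Treg against CD8 went from -0.02 to 0.76 (adjusted p = 8.73e-11, edgeR). The median of all genes with the offsets was -0.25 for Th1 against Treg, so Tnfrsf4 at -0.14 stayed above it. For Th17 against Treg that median was -0.24. Tnfrsf4 in Treg against CD8 went from 0.05 to 0.91 (adjusted p = 5.81e-14), and was also called with upper-quartile scaling (0.22, adjusted p = 0.00816). The place of Treg relative to Th1 for Tnfrsf4, Tnfrsf18 and Tnfrsf9, short transcripts of 1365, 1524 and 2722 bases beside a median of 4374, therefore depended on the scaling. The wide Treg differences of Tnfrsf8, Tnfrsf1b, Cd28 and Icos kept their direction, and Treg over CD8 widened from 1.57 to 2.41 for Tnfrsf14 and from 0.33 to 0.78 for Cd27.

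**Figure D3:**
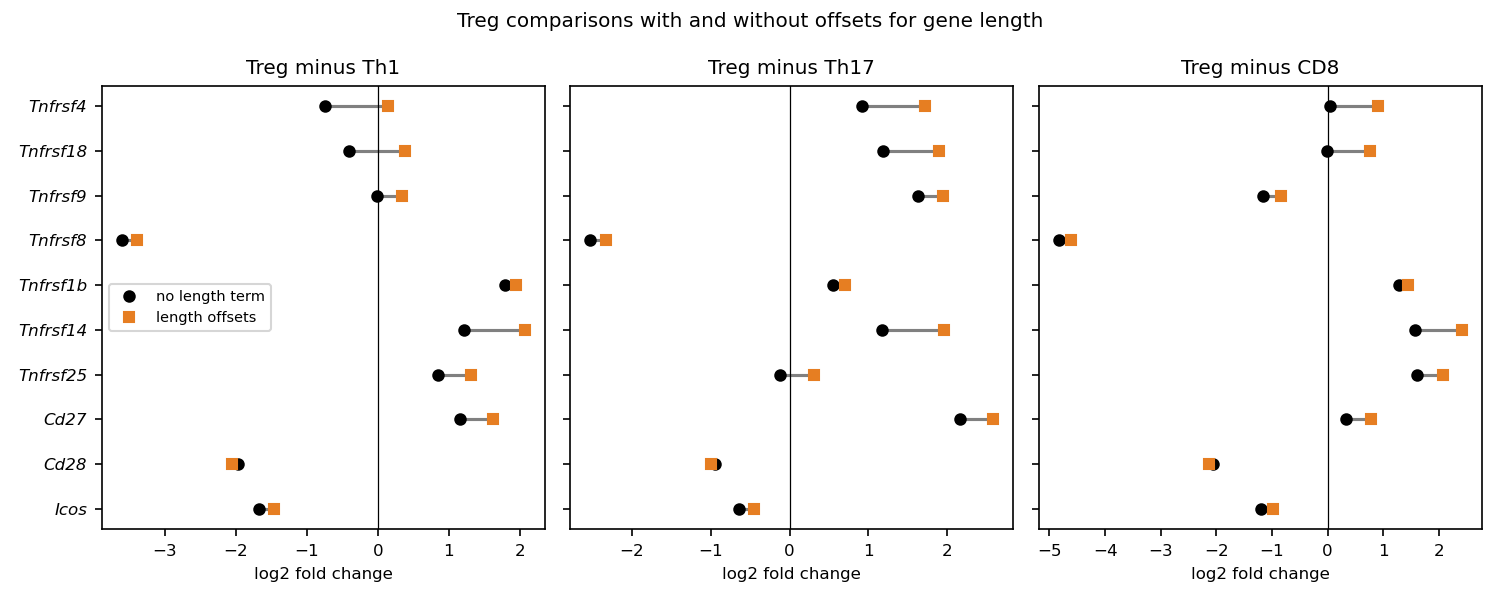
Log2 fold change of each receptor for Treg minus each other cell type, without a length term (black circles) and with the length offsets (orange squares), joined by a line. Signs are those of Treg minus the other type, so Tnfrsf18 crosses 0 against Th1, and Tnfrsf8, Cd28 and Icos stay below 0 in all 3 panels.

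No receptor passed the test for a change with the KOR agonists over the 4 cell types together. The 20 agonist libraries against the 4 DMSO libraries called 0 of 10 receptors in edgeR, beside 0% of all genes. At an unadjusted p under 0.05 there were 2 receptors, Tnfrsf8 and Icos, and 504 genes, and DESeq2 and limma also called 0 receptors. The median log2 fold change was 0.09 for the receptors and 0.01 for all genes.

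Tnfrsf8 came nearest. In Th17 the DMSO library stood at 16.5 CPM and the agonist libraries at 9.74 to 11.4. That DMSO library carries a WT number that no other Th17 library has. In Th17, agonist and WT number therefore cannot be told apart. In Th1, DMSO stood at 27.1 and the agonists at 19.99 to 27.8, in Treg at 2.43 against 1.28 to 2.19, and in CD8 at 61.2 against 48.0 to 62.2. The agonist library was below its cell type's DMSO library in 18 of 20 cases, the exceptions being WMS-200 in Th1 and WMS-76 in CD8. The log2 fold change was -0.33 ± 0.10 (adjusted p = 0.992, edgeR), and in Th17 alone -0.65 ± 0.18 (adjusted p = 0.569). The 20 cases share 4 DMSO libraries, so they are not independent of each other. Icos gave 0.14 ± 0.06 (adjusted p = 0.992, edgeR), with the agonist library above DMSO in 14 of 20 cases. That count does not mark out Icos: Tnfrsf18 and Tnfrsf25 also had 14, and Cd28 had 15.

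Each compound was set against DMSO with the 4 cell types standing in as replicates, and all 5 comparisons share the same DMSO libraries. edgeR called 0 of 10 receptors for each compound, beside 0% of all genes, and 7 of the 50 values had an unadjusted p under 0.05. Of all 15885 genes, 246 (WMS-200) to 1021 (WMS-64) had such a p for a compound. The receptors' log2 fold changes ran from -0.40 for Tnfrsf8 with WMS-83 (95% interval -0.67 to -0.12) to 0.29 for Tnfrsf25 with WMS-75. Their smallest adjusted p was 0.999.

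The 5 compounds were also compared with each other, at the same dose and in the same cell types, in 10 pairs with p-values adjusted over all genes and pairs. edgeR called 0 of 10 receptors in any pair, beside 0% of all genes, and 3 of 100 values had an unadjusted p under 0.05. Of all 15885 genes, 262 (WMS-64 against WMS-76) to 1382 (WMS-64 against WMS-75) had such a p in a pair. The largest difference among the receptors was 0.28 for Tnfrsf14 between WMS-75 and WMS-76 (95% interval -0.09 to 0.66). For Icos the differences lay between -0.04 and 0.05 with interval bounds of -0.19 and 0.20, and for Cd28 between -0.09 and 0.06 with bounds of -0.26 and 0.23. Over all receptors and pairs the bounds were -0.64 and 0.66, so these data allow differences between compounds up to those sizes. The labels give the compounds by code only, so no structural change is named.

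**Figure D4:**
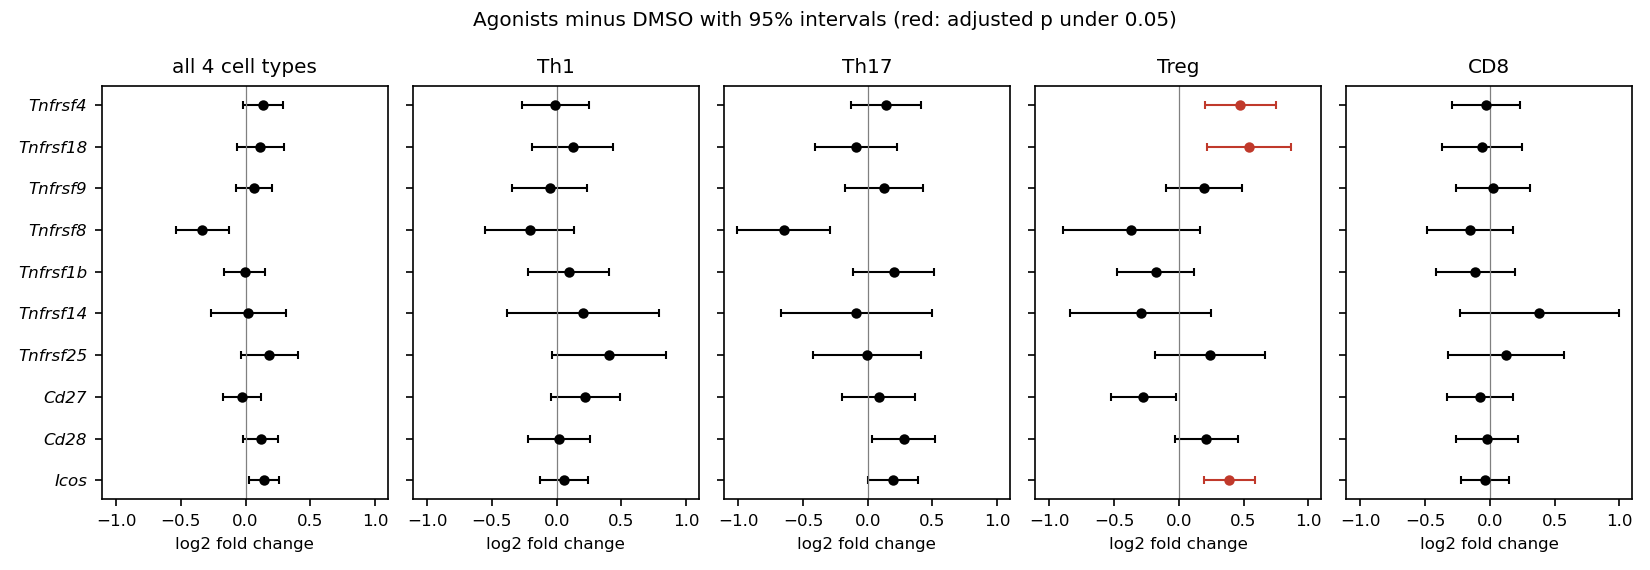
Log2 fold change of each receptor for agonists minus DMSO with its 95% interval, over all 4 cell types and within each (5 agonist libraries against 1 DMSO library). The values called, in red, are Tnfrsf4, Tnfrsf18 and Icos in Treg, and Tnfrsf8 lies below 0 in all 5 panels without being called.

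Each cell type has 1 DMSO library, whose spread was taken to equal that of the other groups. edgeR called 0 of 10 receptors in Th1 (0% of all genes), 0 in Th17 (0.0378%) and 0 in CD8 (0.0063%). At an unadjusted p under 0.05 there were 0 receptors and 517 of 15885 genes in Th1. In Th17 there were 3 receptors (Tnfrsf8, Cd28 and Icos) and 531 genes, and in CD8 0 receptors and 320 genes. DESeq2 and limma also called 0 receptors in each of Th1, Th17 and CD8. No Th17 agonist library shares the WT number of the Th17 DMSO library, so every Th17 value also compares WT numbers. In Treg 3 receptors were called, all higher with agonists, beside 8.82% of all genes called and 7.64% called higher.

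In Treg, Tnfrsf4 stood at 241 CPM with WMS-83, 236 with WMS-76, 215 with WMS-75, 210.3 with WMS-64, 170.3 with WMS-200 and 154 with DMSO. In the same order Tnfrsf18 stood at 281, 257, 273, 261, 193 and 174 CPM, and Icos at 123, 115, 118, 122, 117 and 90.9. DMSO was the lowest library for all 3 genes, and for Tnfrsf4 and Tnfrsf18 the WMS-200 library was the next lowest. The log2 fold change of agonists over DMSO was 0.47 ± 0.13 for Tnfrsf4 (adjusted p = 0.0256, edgeR), 0.54 ± 0.16 for Tnfrsf18 (adjusted p = 0.0316) and 0.39 ± 0.10 for Icos (adjusted p = 0.0124). Cd27 went the other way without being called, at 189.6 CPM with DMSO and 135 to 184 with agonists (-0.27 ± 0.12, adjusted p = 0.170).

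The DMSO and WMS-200 libraries are also the only Treg libraries whose columns carry WT number 3. Where WMS-200 is left out, agonist and WT number in Treg cannot be told apart. With the WT number as a block, the Treg value therefore rests on the WMS-200 library against DMSO alone. The other compounds have no part in it, so it does not test the agonists as a group. It was 0.14 for Tnfrsf4, 0.15 for Tnfrsf18 and 0.37 for Icos (log2). Without the block, 1401 genes were called in Treg. Tnfrsf18 also lost its call without the WMS-64 library (0.52, adjusted p = 0.0583), the WMS-75 library (0.51, adjusted p = 0.0576) or the WMS-83 library (0.49, adjusted p = 0.0630), and Cd27 was called without WMS-200 (-0.34, adjusted p = 0.0298). The scaling mattered too. With DESeq2's size-factor scaling in edgeR, Tnfrsf4 (0.42, adjusted p = 0.0501) and Tnfrsf18 (0.49, adjusted p = 0.0613) lost their calls, and with upper-quartile scaling so did all 3 (adjusted p = 0.0672, 0.0734 and 0.0570 for Tnfrsf4, Tnfrsf18 and Icos). With the length offsets none of the 3 was called (adjusted p = 0.232, 0.132 and 0.0738) and Cd27 was (-0.43, adjusted p = 0.0488). Genes called ranged from 930 without WMS-83 to 2576 without WMS-200.

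Between the 2 Treg libraries numbered 3 and the 4 numbered 2, 6 of 10 receptors did not overlap, beside 37.2% of all genes. Tnfrsf4 (154 to 170.3 against 210.3 to 241 CPM), Tnfrsf18 (174 to 193 against 257 to 281) and Cd28 (171 to 176 against 184 to 228) were lower in number 3. Tnfrsf1b (431 to 502 against 319 to 387), Tnfrsf14 (99.8 to 100.4 against 69.3 to 87.8) and Cd27 (184 to 189.6 against 135 to 171) were higher in it. Icos, by contrast, stood with the agonists in WMS-200 at 117 CPM. The deviations of the DMSO and WMS-200 libraries from the Treg mean correlated at r = 0.369 across 11483 genes, those of a number 3 with a number 2 library at -0.609 to -0.344, and those of 2 number 2 libraries at -0.1297 to 0.281; deviations from a mean that the libraries share lean negative. Th17 markers summed to 93.6 and 112 CPM in number 3 and to 205 to 256 in number 2, and CD8 markers to 42.3 and 51.7 against 27.2 to 36.8. Th1 markers summed to 113.8 and 116.1 against 91.6 to 108.6, and B-cell markers to 11.8 and 10.6 against 7.26 to 9.12. CD4 lineage markers summed to 743 and 731 against 766 to 909. The sums of the T cell, Treg, myeloid and dendritic, NK and gamma delta, and stromal markers overlapped. Ribosomal protein genes held 1.66% (DMSO) and 2.07% (WMS-200) against 2.23% to 2.87%. Their part in the receptor values was not tested.

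**Figure D5:**
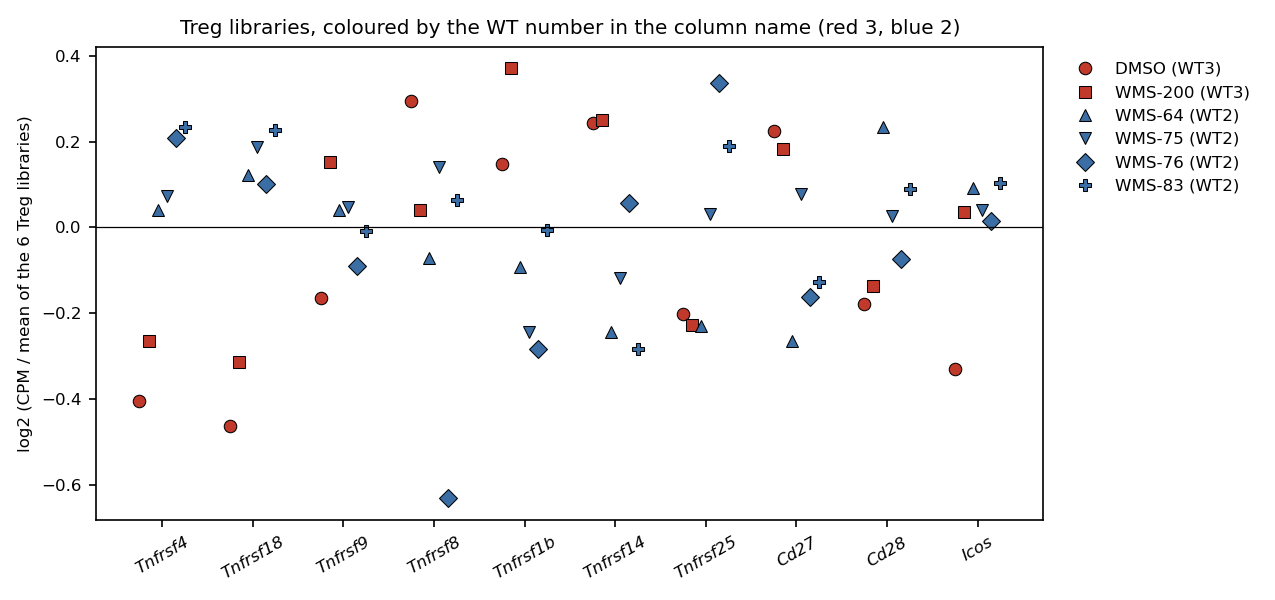
Log2 of CPM over the mean of the 6 Treg libraries for each receptor, with a symbol for each treatment and the WT number of the column in red (3) or blue (2). For Tnfrsf4, Tnfrsf18, Cd28, Tnfrsf1b, Tnfrsf14 and Cd27 the 2 libraries numbered 3 lie to one side of the 4 numbered 2.

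Whether the agonist effect differed between cell types was tested with an interaction term. edgeR called 0 of 10 receptors, beside 0.176% of all genes (28 genes), with adjusted p of 0.262 for Icos, 0.316 for Tnfrsf18 and 0.352 for Tnfrsf4 and unadjusted p of 0.0177, 0.0281 and 0.0379. Without the Treg WMS-200 library, Tnfrsf4 (adjusted p = 0.0476, edgeR) and Tnfrsf18 (adjusted p = 0.0396, edgeR) were called. In that setting the agonist effect in Treg cannot be told apart from the WT number. With no filter on low counts, Tnfrsf18 was called (adjusted p = 0.0262, edgeR).

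The ligands of these receptors are made mostly by antigen-presenting cells, though activated T cells make several. Of 13 ligand genes, 12 passed the filter on low counts and all 12 were called among the cell types, beside 87.4% of all genes; the GITR ligand Tnfsf18 reached at most 0.445 CPM. Between Th1 and Th17, 5 were higher and 5 lower, beside 24.9% and 23.9% of all genes. Tnfsf4, the OX40 ligand, averaged 243 ± 7.51 in CD8, 52.9 ± 5.80 in Treg, 193 ± 16.7 in Th1 and 97.7 ± 8.00 in Th17 (mean CPM ± SD, n = 6), with Treg minus CD8 at -2.20 ± 0.07, adjusted p = 9.77e-20 (log2, edgeR). Cd80, which encodes the Cd28 ligand B7-1, averaged 76.9 ± 4.06 in CD8, 129 ± 31.1 in Treg, 57.7 ± 5.90 in Th1 and 21.4 ± 2.62 in Th17, with Th17 minus Treg at -2.58 ± 0.13, adjusted p = 6.29e-14. Cd70, the Cd27 ligand, averaged 10.8 ± 1.33 in CD8, 7.14 ± 1.86 in Treg, 14.7 ± 1.75 in Th1 and 3.09 ± 0.649 in Th17, with Th1 minus Th17 at 2.25 ± 0.16, adjusted p = 2.98e-12. Tnfsf15, which encodes the DR3 ligand TL1A, averaged 2.00 ± 0.382 in CD8, 2.23 ± 0.357 in Treg, 2.35 ± 0.870 in Th1 and 0.420 ± 0.315 in Th17, and was lowest in Th17 (4 to 16 reads per library), where its receptor Tnfrsf25 had its highest mean.

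Downstream of the TNF receptor members, 13 of 14 TRAF and cIAP adaptor genes were called among the cell types, beside 87.4% of all genes, all but Traf2 (adjusted p = 0.985, edgeR). Traf1, an adaptor induced by NF-kappaB, averaged 589.9 ± 19.7 in CD8, 342 ± 47.4 in Treg, 454 ± 12.9 in Th1 and 213 ± 5.19 in Th17, the same order of means as Tnfrsf9, although Tnfrsf9 in Th1 and Treg could not be told apart. Birc2 and Birc3 encode the ubiquitin ligases cIAP1 and cIAP2 and went in opposite directions between Treg and each other cell type: Birc2 averaged 83.8 ± 2.81 in CD8, 182 ± 18.0 in Treg, 83.6 ± 5.18 in Th1 and 64.7 ± 5.90 in Th17, and Birc3 93.7 ± 2.01 in CD8, 48.0 ± 6.21 in Treg, 110.4 ± 5.01 in Th1 and 98.5 ± 2.77 in Th17. Treg against CD8 was 1.11 ± 0.07, adjusted p = 7.07e-14 for Birc2 and -0.97 ± 0.06, adjusted p = 1.91e-13 for Birc3 (log2, edgeR). Traf5, an adaptor used by several of these receptors, was highest in Treg (24.5 CPM) and lowest in Th1 (9.44 CPM).

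All 4 genes of the alternative NF-kappaB arm were called, beside the same 87.4%. Nfkb2, which encodes its p100 precursor, averaged 825 ± 30.2 in CD8, 616 ± 134 in Treg, 1028 ± 43.8 in Th1 and 489 ± 24.2 in Th17, and Th1 exceeded Th17 by 1.07 ± 0.09, adjusted p = 1.5e-10 (log2, edgeR). Its kinases and its partner moved less: Map3k14 (NIK) ranged over cell-type means from 56.0 to 80.0 CPM, Chuk (IKK alpha) from 87.7 to 123, and Relb from 80.0 to 109.

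All 18 genes listed for Cd28 and Icos signalling were called among the cell types, beside 87.4% of all genes. In Th1 against Th17, 11 of 18 were lower and 5 higher in Th1, beside 23.9% and 24.9%. Malt1, the paracaspase of the CARMA1 complex, averaged 213 ± 12.9 in CD8, 285 ± 21.3 in Treg, 241 ± 14.0 in Th1 and 967 ± 108 in Th17, with Th17 over CD8 at 2.18 ± 0.06, adjusted p = 6.54e-20 (log2, edgeR). Pik3ip1, an inhibitor of phosphoinositide 3-kinase, averaged 26.6 ± 3.03 in CD8, 94.6 ± 13.2 in Treg, 19.6 ± 1.55 in Th1 and 39.3 ± 2.47 in Th17, with Treg over CD8 at 1.83 ± 0.08, adjusted p = 1.57e-16. Akt2, a kinase downstream of it, averaged 263 ± 9.21 in CD8, 107 ± 7.27 in Treg, 281 ± 11.7 in Th1 and 179.6 ± 12.1 in Th17, lowest in Treg like Cd28 and Icos. Pik3cg, a catalytic subunit of phosphoinositide 3-kinase, was higher in Th17 (53.3 CPM) and Treg (48.0 CPM) than in CD8 (24.3 CPM) and Th1 (18.8 CPM). Whether Cd28 or Icos signal through this subunit was not tested.

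All 4 inhibitory receptors that share or neighbour a ligand were called, beside 87.4% of all genes. Ctla4 was higher in Treg than in CD8 by 2.01 ± 0.10, adjusted p = 5.71e-15 (log2, edgeR). Pdcd1, which encodes PD-1, averaged 111 ± 8.94 in CD8, 125 ± 22.8 in Treg, 126 ± 9.43 in Th1 and 305 ± 36.4 in Th17. Btla and Cd160, the receptors that bind HVEM, went apart: Btla averaged 216 ± 11.8 in CD8, 195 ± 33.4 in Treg, 357 ± 16.1 in Th1 and 106 ± 5.35 in Th17, and Cd160 19.2 ± 2.78 in CD8, 4.34 ± 0.896 in Treg, 3.65 ± 0.988 in Th1 and 5.89 ± 1.28 in Th17, with Treg minus CD8 for Cd160 at -2.14 ± 0.17, adjusted p = 3.52e-11.

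Of 20 other TNF receptor superfamily genes, 16 passed the filter and 15 of these were called, beside 87.4% of all genes, all but Ltbr (adjusted p = 0.361, edgeR). Tnfrsf13b, which encodes TACI and is best known from B cells, averaged 22.4 ± 1.96 in CD8, 60.4 ± 10.7 in Treg, 35.6 ± 2.52 in Th1 and 273 ± 19.6 in Th17, with Th17 over CD8 at 3.60 ± 0.09, adjusted p = 6.39e-21. Tnfrsf11a, which encodes RANK, averaged 5.96 ± 0.902 in CD8, 21.5 ± 5.15 in Treg, 5.00 ± 1.29 in Th1 and 0.937 ± 0.381 in Th17, with Th17 minus Treg at -4.53 ± 0.20, adjusted p = 1.6e-16. Eda2r and Tnfrsf19 were low throughout, at 0.680 to 8.01 and 0.123 to 2.47 CPM by cell-type mean; in Th17, Tnfrsf11a had 7 to 24 reads per library, Eda2r 7 to 19 and Tnfrsf19 1 to 3. In the length-adjusted fit, 11 of the 68 tested genes in these lists turned direction with a call in Th1 against Treg, 3 in Th17 against Treg and 5 in Treg against CD8. The share of all genes that turned is not given here, and the call could be in either fit. Among those named here, Cd70 in Treg against CD8 went from -0.61 to 0.64, Malt1 from 0.42 to -0.17 and Tnf from -0.39 to 0.31. In Th1 against Treg, Malt1 went from -0.24 to 0.39, Cd70 from 1.05 to -0.23, Tnfsf14 from 0.44 to -0.18 and Pdcd1 from 0.03 to -0.57.

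None of the 68 list genes was called with agonists over all cell types or within Th1, Th17 or CD8. Within Treg 11 were called, beside 8.82% of all genes, and 10 of them were higher with agonists, beside 7.64%, among them the ligands Lta, Tnf, Tnfsf14 and Cd70, with Traf6, Birc3, Nfkb2, Pdcd1 and Tnfrsf23, while Traf3ip2 was lower. Lta, which encodes lymphotoxin alpha, stood at 63.4 CPM with DMSO and 98.5 to 159 with agonists (1.12 ± 0.18, adjusted p = 0.00144, edgeR). Tnf stood at 38.5 against 49.4 to 95.03 (1.02 ± 0.22, adjusted p = 0.00719), Tnfsf14, which encodes the HVEM ligand LIGHT, at 9.62 against 14.5 to 21.5, and Cd70 at 3.54 against 6.99 to 8.73. With length offsets 8 of the 68 were called in Treg. The share of all genes called in that fit is not given here. As for the receptors, the WT number as a block leaves WMS-200 against DMSO alone, a different contrast from that of all the agonists. The log2 fold change of WMS-200 alone was 0.63 for Lta, beside 1.12 for all agonists, and 0.36 for Tnf, beside 1.02. It was 0.36 for Tnfrsf23, beside 1.14, and 0.59 for Tnfsf14, beside 0.98. For Pdcd1 it was 0.43, beside 0.52, and for Cd70 1.10, beside 1.15.

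The genes most like each receptor were found by the root mean square difference of centred log2 CPM over the 24 libraries, among 11482 genes; libraries of a cell type dominate this measure, and the median over all genes was 0.70 to 1.77. For Tnfrsf4 they were Cd81 (0.16), Btla (0.17) and Tnfrsf18 (0.20), and for Tnfrsf18 Cd74 (0.14), Ncoa7 (0.17) and Stk39 (0.20). For Cd28 they were Ccnd3 (0.12), Tnfsf4 (0.12) and Pfkl (0.16), and for Icos Csrnp1 (0.15), Tmem70 (0.16) and Itgb1 (0.17). For Tnfrsf1b they were St8sia1 (0.15), Sox12 (0.20) and Cd96 (0.21), and for Tnfrsf14 Zfc3h1 (0.14), 6820431F20Rik (0.14) and Cklf (0.16). The nearest genes were further off for Tnfrsf9 (Epsti1 0.20, Cd83 0.29, Fah 0.31), Cd27 (Il7r 0.21, Trim7 0.26) and Tnfrsf25 (Rab11fip4, Igf1r and Slc9b2, 0.25 each). They were furthest for Tnfrsf8 (4933406I18Rik 0.41, Prag1 0.41, Enpp4 0.45), the receptor with the widest range.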

How the data were processed

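Per the submitters' processing notes, reads were handled with fastp, HISAT2 and featureCounts, with versions, strand setting and genome build not given in the sources used here; per the labels libraries were made from poly(A)-enriched total RNA. The authors deposited 1 table of raw counts per gene with gene lengths and coordinates, and the counts were used as deposited.

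Genes were kept with edgeR 4.0.16's filterByExpr by cell type (minimum count 10), which left 15885 of 56748 (28.0%), and scaled by TMM. CPM and CPM per kilobase use these scaled library sizes. Quasi-likelihood tests (robust) used 1 model with cell type and treatment (15 residual degrees of freedom) and 1 with agonist or DMSO within cell type (16). P-values were Benjamini-Hochberg adjusted over all genes, jointly over the 6 cell-type pairs, the 5 compounds or the 10 compound pairs. Log2 values for profiles used a prior count of 2. Alternatives used limma 3.58.1 (voom), DESeq2 1.42.0, RLE or upper-quartile scaling, no filter, lowess length offsets (span 0.5), the WT number as a block, and each library left out. The scripts were tested on simulated data. Promoter windows are from RefSeq (GRCm38.p6). No pair of libraries agreed within sampling noise.

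The receptors and gene lists were chosen with earlier results of these data known. Named genes are the 10 receptors, up to 4 genes of each list with the widest range of cell-type means, and the 3 genes with the profile nearest to each receptor; list genes called in Treg with agonists, and genes whose direction or call is given as an exception, were named after their values were seen. A few genes that these rules name are not reported here.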

Additional observations from a re-analysis of the deposited data

Results flagged for a closer look

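Among 40 groups of 6 libraries (10 receptors in 4 cell types), 3 had a lowest or highest library standing far from the other 5, where chance gives about 2. Tnfrsf9 in Th1 was 244 CPM in the WMS-83 library, below the other 5, which reached 291. Tnfrsf8 in Th17 was 16.5 CPM in the DMSO library, above the agonist libraries at 9.74 to 11.4. That DMSO library also differs from all the others of Th17 in its WT number. Icos in Treg was 90.9 CPM in the DMSO library, below the agonist libraries at 115 to 123.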

How the results depend on the processing

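The cell-type results held under most alternatives. Of 510 receptor values between pairs of cell types under other scalings, filters, tools or the block, 498 kept their side of the threshold. Among the 498, 6 were uncalled values that changed sign. Another 5 lost their call, 2 gained one with the same sign, and 5 reversed, that is, changed sign with a call in either fit. Of 1440 with a library left out, 1425 kept their side (15 uncalled with a change of sign) and 15 lost their call. The 5 reversals all came with the length offsets: Tnfrsf4 (-0.14), Tnfrsf18 (-0.38) and Tnfrsf9 (-0.33) in Th1 against Treg, Tnfrsf25 in Th17 against Treg (-0.30), and Tnfrsf18 in Treg against CD8 (0.76). Only Tnfrsf4 and Tnfrsf18 in Th1 against Treg were called without the offsets too. Tnfrsf9 (0.01), Tnfrsf25 (0.12) and Tnfrsf18 in Treg against CD8 (-0.02) were uncalled without them, so these gained a call. The cause was not tested. The 3 receptors called with agonists in Treg became 1 with RLE scaling, 0 with upper-quartile scaling and 1 with length offsets (Cd27). They were 2 to 4 with a library left out. With the WT number as a replicate block the Treg value is WMS-200 against DMSO alone, and no count is drawn from it. The test of whether the agonist effect differed between cell types called 0, or 1 with no filter (Tnfrsf18, adjusted p = 0.0262, edgeR), and 0 to 2 with a library left out. The WT numbers are in the column names and the labels do not say what they mark. Apart from agonists in Treg, the block changed no call named in the report but that of Tnfrsf14 in Th17 against CD8. It could not be fitted for pairs with Th1 or for the test among all cell types. Leaving out a cell type's only DMSO library leaves no agonist contrast there. Among the receptors depth limits Tnfrsf8 in Treg most, where 28 to 46 reads were counted.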
